A study of Mus musculus with 6 samples.

Results

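The matricellular proteins of activated fibroblasts were followed in heart tissue as 10 genes, taken by their symbols from a table of 21989 genes: Postn, Cilp, Tnc, Thbs1, Thbs2, Thbs3, Thbs4, Sparc, Spp1 and Meox1. All 10 were found. Of these, 9 code for secreted matrix proteins, and Meox1 codes for a homeobox transcription factor of activated fibroblasts, so it is matricellular by association and not by product. The tissue was the left ventricle of male C57BL/6 mice that received ISO, the usual abbreviation of the beta-adrenergic agonist isoproterenol, at 10 mg/kg/d under the skin for 3 weeks, or the same volume of saline. The submitters call the ISO mice a heart failure model, and beta-adrenergic overload is a model of stress and scarring without a blocked artery. No transgene, deletion or other agent is named for either group. There were 3 RNA-seq libraries in the ISO group and 3 in the saline group, made from polyadenylated RNA. The labels mention biological repeats but name no animals, and the p-values therefore speak for the spread between these libraries only.

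Matricellular proteins are secreted into the matrix but act mainly as signals and modulators rather than as load-bearing fibres. They bind collagens, growth factors and cell surface receptors such as integrins, CD36 and CD47, and most are low in the healthy adult heart and return after injury. In scarring hearts, resident fibroblasts that become activated are a main source of periostin and Cilp, while osteopontin also comes from macrophages and thrombospondin 1 also from platelets. Meox1 is known from mouse hearts as a factor that switches with the fibroblast stress state.

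The libraries held 2776152 to 9862363 reads, recovered from the steps of the deposited values. Saline 3 had the fewest and stood apart from all other libraries: the median chi-square of read counts per gene was 42.7 to 56.3 times what sampling gives in its pairs with them, against 4.46 to 20.2 times in pairs of the other 5. The closest pair was ISO 1 and ISO 2. Levels are in FPKM, which is scaled to gene length and library size, so levels of different genes can be set side by side as far as the length used is right. For Postn that length was 3401 bases, against 8702 bases of merged exons in GENCODE M21, and on the longer length its place in the order of levels would be lower. The defining cardiomyocyte markers were abundant in every library, with summed levels of 14250 to 26386 FPKM in ISO libraries, against 33502 to 59866 FPKM in saline for 15 markers. Atrial markers were abundant as well, which is unusual for tissue labelled as left ventricle and which no label accounts for. The 7 atrial markers summed to 18525, 18650 and 15505 FPKM in ISO 1 to 3, against 26992, 24511 and 10795 FPKM in saline 1 to 3, with saline 3 the lowest. The part of atrial tissue in the members' levels was not tested.

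The set of RefSeq start regions used here, on GRCm38.p6, held 8 of the 10 members and lacked Thbs1 and Meox1. Of these, 4 are shown: Postn and Sparc for their clearly separate groups, Thbs2 as the thrombospondin with the most matches, and Spp1 as the member with the widest spread. The choice thus depended in part on the matches. Cilp, whose groups were also separate, has no match in its region and is not shown. Each is the 250 bases before the start, on the gene's strand, and capitals mark matches on either strand to any of 6 searched words: the AP-1 word TGANTCA, the SMAD word CAGACA, the TEAD word CATTCC, the homeobox word TAATTA, the CCAAT box and the TATAAA box.
Postn (chr3:54360857-54361106, + strand, the second of 2 RefSeq starts): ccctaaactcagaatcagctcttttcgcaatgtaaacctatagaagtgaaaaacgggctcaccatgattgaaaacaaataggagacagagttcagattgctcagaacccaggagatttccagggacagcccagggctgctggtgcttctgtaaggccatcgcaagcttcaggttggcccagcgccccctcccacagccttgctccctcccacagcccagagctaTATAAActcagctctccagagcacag
Sparc (chr11:55420081-55420330, - strand): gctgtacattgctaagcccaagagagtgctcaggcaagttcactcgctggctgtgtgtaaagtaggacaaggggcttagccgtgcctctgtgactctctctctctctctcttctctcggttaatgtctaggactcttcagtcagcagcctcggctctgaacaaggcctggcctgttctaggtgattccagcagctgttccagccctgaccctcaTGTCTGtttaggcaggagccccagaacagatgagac
Thbs2 (chr17:14694263-14694512, - strand): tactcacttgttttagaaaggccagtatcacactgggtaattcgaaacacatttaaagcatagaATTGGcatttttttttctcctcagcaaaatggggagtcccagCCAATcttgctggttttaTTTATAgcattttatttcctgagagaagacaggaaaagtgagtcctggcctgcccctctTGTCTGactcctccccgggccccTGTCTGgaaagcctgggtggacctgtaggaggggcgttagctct
Spp1 (chr5:104434861-104435110, + strand, the first of 2 RefSeq starts): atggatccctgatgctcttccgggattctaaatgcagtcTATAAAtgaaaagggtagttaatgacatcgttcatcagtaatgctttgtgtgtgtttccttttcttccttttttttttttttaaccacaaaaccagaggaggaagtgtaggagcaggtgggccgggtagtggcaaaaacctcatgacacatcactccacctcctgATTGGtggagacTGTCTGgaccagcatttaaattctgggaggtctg

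The Postn region has a TATAAA 26 to 21 bases before the start. Spp1 has CCAAT on the other strand at 46 to 42 bases and CAGACA on the other strand at 34 to 29 bases before the start. Sparc has CAGACA on the other strand at 36 to 31 bases and Thbs2 has it at 67 to 62 and at 44 to 39 bases before the start. CAGACA was present in the regions of 5 member genes (Tnc, Spp1, Sparc, Thbs4 and Thbs2), that is in 5 of 11 regions, against 17.1% of all 32851 RefSeq regions of this length. TATAAA was present in the regions of 4 member genes, against 12.4% of all regions; the 2 regions of Tnc overlap and hold the same site. CCAAT was in 3 of 11 (33.8% of all), CATTCC in 1, that of Thbs4 (12.6% of all), and TAATTA in 1, a second start of Spp1 (4.84% of all). TGANTCA was in 0 of 11 (6.75% of all). The words do not overlap each other in these regions except for a pair of CATTCC matches in Thbs4 that share a base. These are matches of letters and not measured binding.

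In the ISO ventricles, 9 of the 9 members that could be tested had a higher mean log2 level than in the saline ventricles, with a median log2 fold change of 1.05, against 0.20 for all 12269 genes tested, of which 68.1% were higher in ISO. All log2 fold changes here are differences in log2(FPKM + 1), ISO minus saline. Tnc was left out of the test because its mean of 0.935 FPKM lay under the minimum mean of 1, while the other 9 members had a saline mean above that minimum as well. For 7 of the 9, Postn, Cilp, Thbs1, Thbs2, Thbs3, Sparc and Meox1, every ISO library lay above every saline library, against 12.8% of all genes tested. No member passed the threshold over all genes (limma, Benjamini-Hochberg adjusted p under 0.05), where the background was 0%, with 774 genes (6.31%) at an unadjusted p under 0.05. The adjusted p was 0.699 for each tested member except Spp1, where it was 0.750. Of the 9 members, 6 had an unadjusted p under 0.05 and were higher, against 4.92% of all genes tested. With sample quality weights, Postn, Cilp, Thbs1, Sparc and Meox1 passed the threshold as higher. In that fit 6.26% of all genes were called and 4.25% as higher. The weights ran from 0.0772 for saline 3 to 5.50 for ISO 2. In the unweighted fit without saline 3, 0 genes and 0 members passed. An exact two-sided permutation test of 3 against 3 cannot go below 0.10, and the same 7 members reached that value. In bulk tissue, more fibroblasts and more RNA per fibroblast cannot be told apart. The cardiomyocyte markers were lower in ISO for 15 of 15, and their part in the members' FPKM was not tested.

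**Figure D1:**
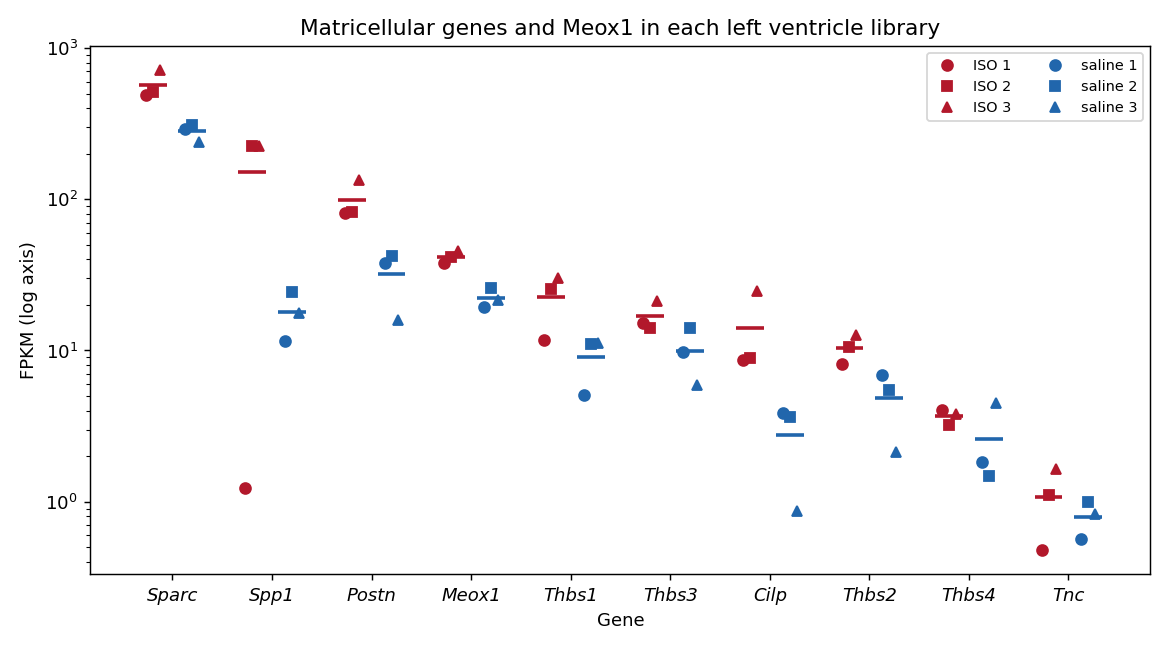
FPKM (log axis) of each of the 10 genes in the 3 ISO libraries (red) and the 3 saline libraries (blue), with the bar at the group mean. The groups are apart for 7 genes, ISO 1 lies far below the other ISO libraries for Spp1 (1.23 FPKM), and saline 3 is the highest library for Thbs4 (4.50 FPKM).

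Sparc was the most abundant member in every library, at 55.5% to 74.4% of the summed member FPKM in ISO and 70.7% to 75.2% in saline. In ISO the group means ran from Sparc through Spp1, Postn, Meox1, Thbs1, Thbs3, Cilp, Thbs2 and Thbs4 to Tnc. The library ranges of neighbours in that order overlapped for Spp1 and Postn, for Thbs1 and Thbs3, for Thbs3 and Cilp and for Cilp and Thbs2. In saline the order was Sparc, Postn, Meox1, Spp1, Thbs3, Thbs1, Thbs2, Cilp, Thbs4 and Tnc, and only Sparc stood clear of Postn and Thbs4 of Tnc. The summed FPKM of the 10 members was 658, 927 and 1216 in ISO 1 to 3, against 391, 441 and 321 in saline 1 to 3.

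Postn codes for periostin, a fasciclin-domain protein that activated fibroblasts secrete and that promotes collagen fibre assembly (chromosome 3, 54359267 to 54391041). It was at 80.8, 82.5 and 134 FPKM in ISO 1 to 3, against 38.2, 41.9 and 15.9 FPKM in saline 1 to 3. ISO 3 was the highest library and saline 3 the lowest, and the groups were well apart. Its difference on the log2 scale was 1.67 (SE 0.41), at the percentile 99.2 of all genes tested. Without saline 3 it was 1.25. Its 95% counting interval was 77.3 to 84.4 FPKM in ISO 1, against 39.2 to 44.7 FPKM in saline 2, so the gap between the closest libraries was wider than counting error.

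Cilp codes for cartilage intermediate layer protein, a matrix protein that binds TGF-beta and is known as a marker of activated heart fibroblasts (chromosome 9, 65265180 to 65280614). It was at 8.71, 8.88 and 24.9 FPKM in ISO 1 to 3, against 3.83, 3.63 and 0.867 FPKM in saline 1 to 3. The groups did not overlap, and the value in ISO 3 stood well above the other ISO libraries. Its log2 fold change was 1.96 (SE 0.53). It was 1.50 without ISO 3, 1.52 without saline 3, 1.22 with a pseudocount of 5 and 1.15 with sample quality weights. Saline 3 held 10 reads of Cilp, with a 95% interval of 4.80 to 18.4 reads, so its level there is known only roughly.

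Tnc codes for tenascin C, a large glycoprotein of wound edges that is nearly silent in resting adult heart (chromosome 4, 63959785 to 64047015). It was at 0.478, 1.11 and 1.64 FPKM in ISO 1 to 3, against 0.564, 0.989 and 0.831 FPKM in saline 1 to 3. The groups overlapped, and ISO 1 was the lowest of all libraries. These levels rest on 26, 42 and 68 reads in ISO 1 to 3 and on 41, 46 and 17 reads in saline 1 to 3. With no filter on low values the log2 fold change was 0.18 (SE 0.26, adjusted p = 0.804 with limma). Exons of Tnc share 176 bases with an antisense transcript in GENCODE M21, and the strand setting of the counting is not stated.

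**Figure D2:**
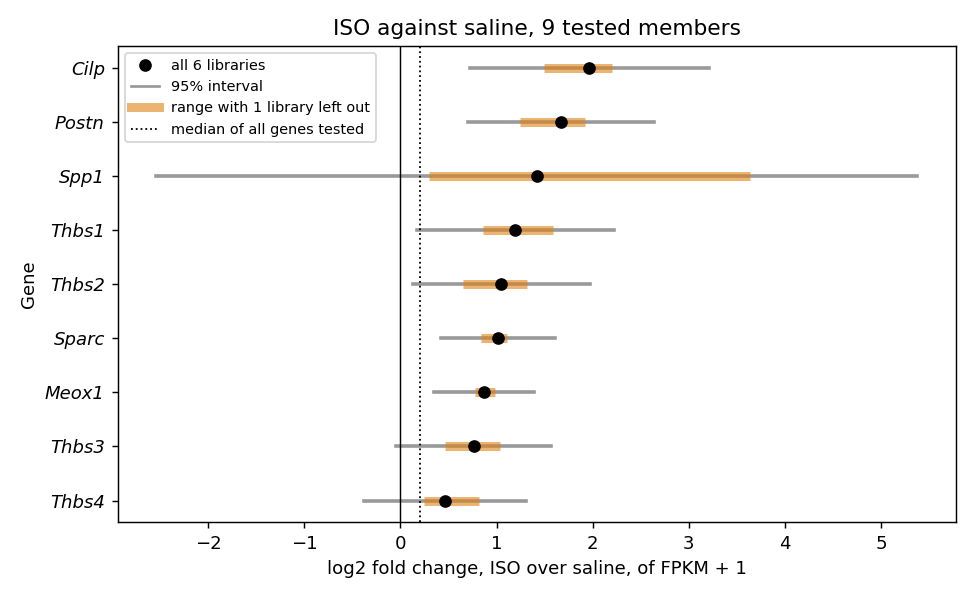
log2 fold change of the 9 tested genes (points, x axis, ISO over saline, of FPKM + 1) with its 95% interval (grey) and the range when any 1 of the 6 libraries is left out (orange). All points lie right of 0 and right of the dotted median of all genes (0.20), and Spp1 has the widest interval, -2.55 to 5.38.

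Thrombospondins fall into trimers with properdin-like repeats (Thbs1 and Thbs2), which bind CD36 and slow vessel growth, and pentamers without them (Thbs3 and Thbs4). The sum of the 4 genes was 39.2, 53.4 and 68.0 FPKM in ISO 1 to 3, against 23.5, 32.1 and 23.8 FPKM in saline 1 to 3, and the groups did not overlap. Thbs1, whose product activates latent TGF-beta (chromosome 2, 118111876 to 118127133), was at 11.8, 25.5 and 30.3 FPKM in ISO 1 to 3, against 5.05, 11.0 and 11.3 FPKM in saline 1 to 3. ISO 1 lay just above saline 3, and their counting intervals, 10.8 to 12.9 and 9.70 to 13.0 FPKM, overlapped. Thbs1 had a log2 fold change of 1.19 (SE 0.44), and of 0.86 without saline 1 or 1.58 without ISO 1. Thbs1 shares 208 exon bases with an antisense RNA gene.

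Thbs2 codes for the related thrombospondin 2, which limits metalloproteinase activity and holds the injured heart wall together in mice (chromosome 17, 14665500 to 14694262). It was at 8.08, 10.5 and 12.6 FPKM in ISO 1 to 3, against 6.87, 5.49 and 2.13 FPKM in saline 1 to 3. The groups did not overlap, but the counting intervals of ISO 1 (7.26 to 8.97 FPKM) and saline 1 (6.21 to 7.57 FPKM) did, and saline 3 was far below the other libraries. Its log2 fold change was 1.05 (SE 0.39) with all libraries and 0.65 without saline 3. The balance of Thbs1 to Thbs2 varied from library to library, at 1.46, 2.43 and 2.41 in ISO 1 to 3, against 0.735, 2.00 and 5.29 in saline 1 to 3.

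Thbs3, the least studied of the family, is placed on chromosome 3, 89215180 to 89226841. It was at 15.2, 14.14 and 21.4 FPKM in ISO 1 to 3, against 9.79, 14.12 and 5.90 FPKM in saline 1 to 3. ISO 2 and saline 2 were nearly equal, so the groups were apart by far less than counting error. On the log2 scale the difference was 0.76 (SE 0.34), and 0.47 without saline 3. Exons of Thbs3 share 318 bases with those of the neighbour Mtx1 on the opposite strand, so some reads of these 2 genes may be mixed. Mtx1 stood at 22.4, 17.6 and 19.5 FPKM in ISO 1 to 3 and at 20.6, 31.0 and 30.7 FPKM in saline 1 to 3, so it did not follow Thbs3.

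Thbs4, which is known from mice to be induced in overloaded hearts and to aid the stress response of the endoplasmic reticulum (chromosome 13, 92751586 to 92794818), was at 4.06, 3.21 and 3.78 FPKM in ISO 1 to 3, against 1.84, 1.49 and 4.50 FPKM in saline 1 to 3. Here saline 3 was the highest library, which was the case for no other member. Its log2 fold change was 0.47 (SE 0.36), but 0.82 without saline 3 and 0.24 without saline 2. The level in saline 3 came from 40 reads, with a 95% interval of 3.21 to 6.13 FPKM, which holds the levels of ISO 1 and ISO 3 and begins just above that of ISO 2.

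Sparc codes for osteonectin, a collagen-binding protein that fibroblasts, vessels and other stromal cells make and that aids collagen processing (chromosome 11, 55394159 to 55420080). It was at 490, 515 and 716 FPKM in ISO 1 to 3, against 294, 311 and 240 FPKM in saline 1 to 3. The groups were far apart, with 1761 reads even in the shallowest library, saline 3. On the log2 scale they differed by 1.01 (SE 0.25), which stayed between 0.84 and 1.11 with any 1 library left out. Set against Sparc, Postn stood at a ratio of 0.165, 0.160 and 0.187 in ISO 1 to 3, against 0.130, 0.135 and 0.0661 in saline 1 to 3, so every ISO library lay above every saline library in this ratio too.

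Spp1 codes for osteopontin, an acidic cytokine-like protein that binds integrins and CD44 (chromosome 5, 104435111 to 104441053). Its exons share 309 bases with a GENCODE M21 gene model on the same strand, Gm42793, so reads there cannot be told apart by strand. It was at 1.23, 225 and 226 FPKM in ISO 1 to 3, against 11.6, 24.5 and 17.8 FPKM in saline 1 to 3. ISO 1 was below every saline library, and ISO 2 and ISO 3 were far above them. The gap within the ISO group was 185-fold. ISO 1 held 15 reads of Spp1, with a 95% interval of 0.686 to 2.02 FPKM, against 1921 reads in ISO 2. The log2 fold change of 1.42 (SE 1.68) was 3.64 without ISO 1 (adjusted p = 0.0404 with limma, where 0.13% of 12306 genes were called as higher), 0.31 without ISO 2 and 0.30 without ISO 3.

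For Postn, Cilp, Thbs3, Thbs4 and Meox1 the counting intervals of ISO 1 and ISO 2 overlapped. Macrophage markers were likewise lower in ISO 1 than in ISO 2 and ISO 3: their summed level over 14 markers was 1123, 2128 and 2133 FPKM in ISO 1 to 3, against 623, 787 and 823 FPKM in saline 1 to 3. Gpnmb, a glycoprotein of lipid-laden macrophages that was picked after its values were seen, was at 2.46, 66.6 and 72.9 FPKM in ISO 1 to 3, against 3.36, 2.21 and 7.40 FPKM in saline 1 to 3. Trem2, a macrophage lipid receptor picked in the same way, was also lower in ISO 1 than in ISO 2 and ISO 3. Unlike Gpnmb, its value in ISO 1 lay above those of all saline libraries. Trem2 was at 24.2, 43.2 and 35.3 FPKM in ISO 1 to 3, against 19.1, 20.1 and 0.943 FPKM in saline 1 to 3. The genes with the pattern nearest to Spp1, also looked up after the values were seen, were Ccl2, Cxcl1 and Il6, all inflammatory cytokines, with a root mean square difference of 0.78, 0.79 and 0.81 on the centred log2 scale over 6 libraries. Il6 was at 0.713, 42.3 and 48.7 FPKM in ISO 1 to 3, against 2.67, 2.08 and 3.79 FPKM in saline 1 to 3. Because Ccl2, Cxcl1 and Il6 were chosen by nearness to Spp1 over these same libraries, their low value in ISO 1 is no separate result. The cartilage and bone markers, 14 in the table, summed to 13.9, 115 and 122 FPKM in ISO 1 to 3, against 5.59, 68.7 and 14.7 FPKM in saline 1 to 3. Their defining collagen Col2a1 was listed at 0 in ISO 1 and saline 3, at 0.138 FPKM in saline 1, at 41.4 FPKM in saline 2 and at 64.7 and 70.8 FPKM in ISO 2 and ISO 3. The part of these cells in the Spp1 level was not tested.

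**Figure D3:**
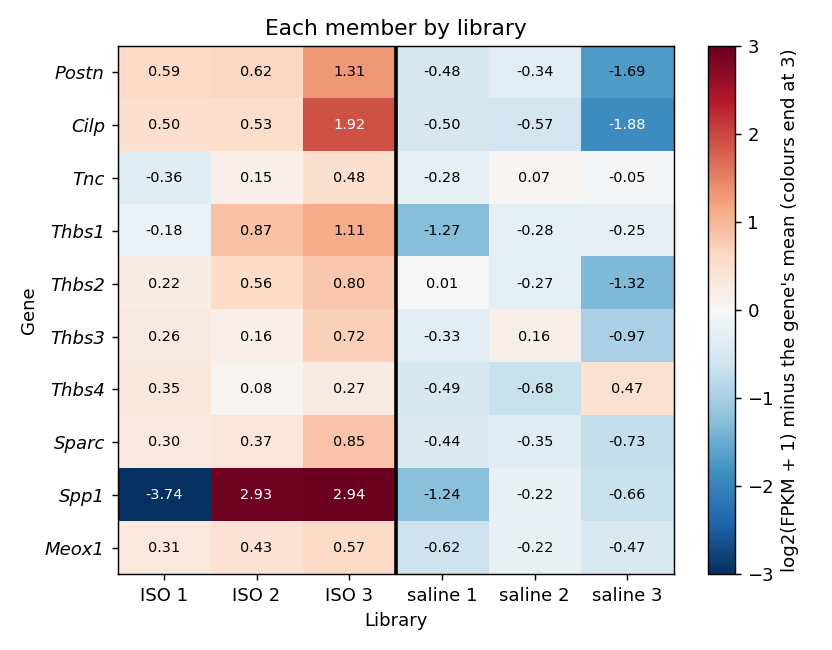
Level of each gene in each library as log2(FPKM + 1) minus the gene's mean over the 6 libraries (numbers and colours), ISO left of the line and saline right of it. ISO 3 is the highest library for 9 of the 10 genes, the highest of Thbs4 is saline 3, and Spp1 in ISO 1 is the lowest value (-3.74).

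Meox1 codes for a homeobox factor that drives fibroblast activation in stressed mouse hearts (chromosome 11, 101877510 to 101894354). It was at 37.7, 41.3 and 45.4 FPKM in ISO 1 to 3, against 19.3, 26.0 and 21.7 FPKM in saline 1 to 3. The groups did not overlap. With little spread within either group, the log2 fold change was 0.87 (SE 0.22) and stayed between 0.78 and 0.98 with any 1 library left out.

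Across the members the libraries did not vary alike. ISO 3 was the highest library for 9 of the 10, and saline 3 was the lowest for 5 (Postn, Cilp, Thbs2, Thbs3 and Sparc). The lowest library was saline 1 for Thbs1 and Meox1, saline 2 for Thbs4 and ISO 1 for Tnc and Spp1. ISO 3 was also the library with the lowest cardiomyocyte markers (14250 FPKM in sum) and saline 3 the one with the highest (59866 FPKM), and their part in these extremes was not tested. Without both of these libraries the 9 tested members were still higher in ISO, with a median log2 fold change of 0.79, against 0.045 for all genes.

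**Figure D4:**
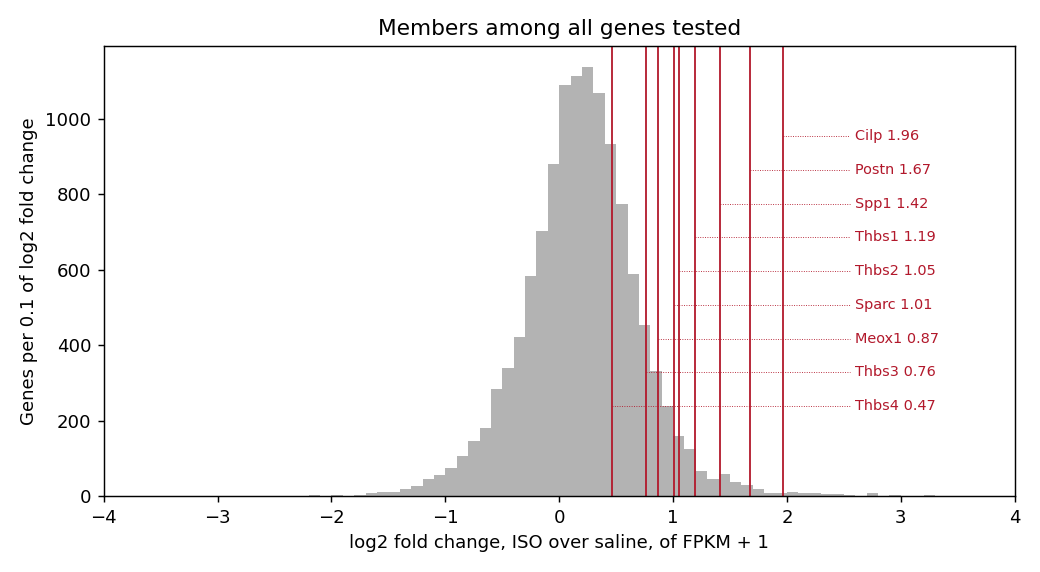
Number of genes (y axis) per step of log2 fold change (x axis, ISO over saline, of FPKM + 1) for the 12269 genes tested, with the 9 tested members as red lines. The members run from 0.47 (Thbs4) to 1.96 (Cilp), all above the median of 0.20.

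The 13 fibroblast markers summed to 2344 to 3185 FPKM in the ISO libraries, against 1700 to 2348 FPKM in the saline libraries. Of them 10 were higher in ISO (median log2 fold change 0.46), a share not far from the 68.1% of all genes tested. For 5 every ISO library lay above every saline library (12.8% of all genes), and for 1 below (3.72%). The markers' mean log2 level was 6.22, 6.20 and 6.43 in ISO 1 to 3. In saline 1 to 3 these markers stood at 5.91, 6.00 and 5.80. Their most abundant genes were Gsn, the actin-severing gelsolin, and Dcn, the proteoglycan decorin, at 829 ± 141 FPKM in ISO and 492 ± 163 FPKM in saline (Dcn, SD, n = 3 each). Gsn was at 996 ± 472 FPKM in ISO and 754 ± 203 FPKM in saline (SD, n = 3 each). When each library was centred on the mean log2 level of these markers, the 9 tested members were still higher in ISO, with a median of 0.67, against -0.18 for all genes. On that scale every ISO library lay above every saline library for Postn, Cilp, Sparc and Meox1, against 2.15% of all genes tested. The centred difference was 1.29 for Postn, 1.58 for Cilp, 0.63 for Sparc and 0.49 for Meox1. It was 0.81 for Thbs1, 0.67 for Thbs2, 0.38 for Thbs3, 0.084 for Thbs4 and 1.04 for Spp1, and the groups of each overlapped. Thbs1, Thbs2 and Thbs3 thus lost the separation that they had without centring. For Tnc, which was not tested, the centred difference was -0.20, with overlapping groups. With this centring 0 genes and 0 members passed the threshold. This centring was chosen after the values were seen.

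**Figure D5:**
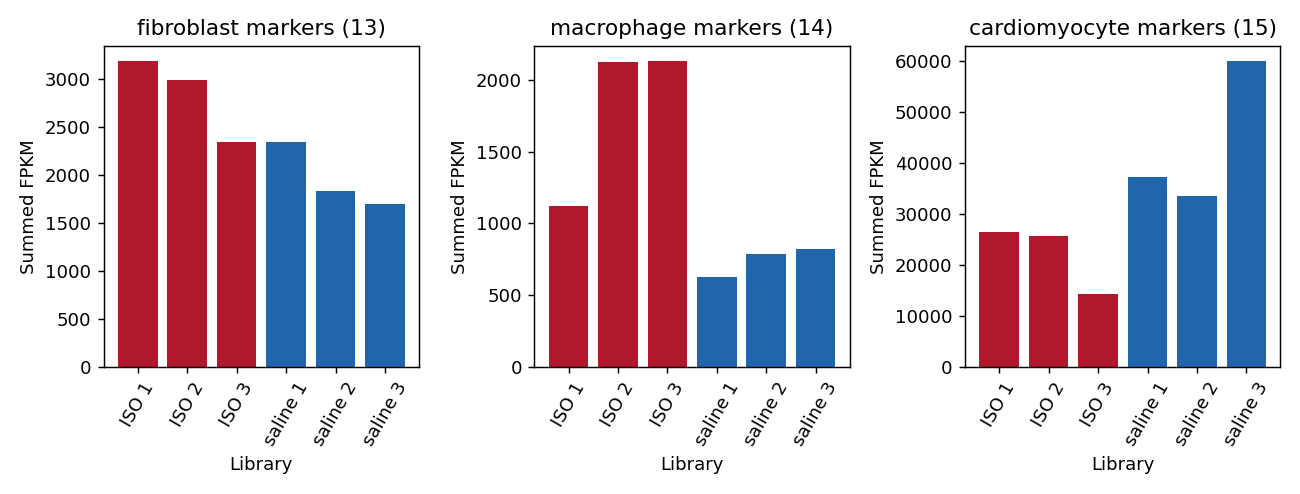
Summed FPKM (y axis, bars from 0) of the fibroblast, macrophage and cardiomyocyte markers in each library, ISO in red and saline in blue. Macrophage markers are highest in ISO 2 and ISO 3 (2128 and 2133 FPKM), and cardiomyocyte markers are highest in saline 3 (59866 FPKM).

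The 8 tested platelet markers were all higher in ISO (median log2 fold change 0.75), summing to 159 to 223 FPKM in ISO libraries, against 79.7 to 139 FPKM in saline. Nrgn, which platelets hold but neurons as well, and Clec1b, a platelet lectin receptor, were the most abundant of them, Clec1b at 22.5 ± 5.47 FPKM in ISO and 10.3 ± 2.84 FPKM in saline (SD, n = 3 each). Their part in the level of Thbs1 was not tested. Macrophage markers were higher for 14 of 14 tested (median 1.13), with Lyz2, the macrophage lysozyme, at 888 ± 368 FPKM in ISO and 270 ± 71.8 FPKM in saline and Lgals3, galectin 3, at 218 ± 91.7 FPKM in ISO and 129 ± 55.4 FPKM in saline (SD, n = 3 each). Endothelial markers were higher for 9 of 10 (median 0.44), with Egfl7 and Emcn the most abundant. Epicardial markers were higher for 6 of 7 (median 0.49), with Msln and Krt19 the most abundant. Smooth muscle and pericyte markers were higher for 7 of 11 (median 0.016). Their most abundant, Des and Acta2, were lower in ISO (log2 fold change -0.29 for each). Of the tendon and valve markers 4 of 6 tested were higher (median 0.41). Their most abundant were Egr1, which was lower in ISO (log2 fold change -0.18), and Comp. Cartilage and bone markers were higher for 8 of 8 tested (median 1.10), with Col2a1 and Lect1 the most abundant. Of the atrial markers 5 of 7 were higher (median 0.12) and of the neutrophil markers 3 of 4 tested (median 0.56). The most abundant neutrophil markers were S100a9 (log2 fold change 0.0022) and S100a8 (-0.41). Cardiomyocyte markers were lower for 15 of 15 (median -0.82), with Tnnt2 and Tnni3 the most abundant. No marker of any list passed the threshold with limma over all genes.

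Genes of the same pathway were read from lists, of which no member passed the threshold (limma, adjusted p under 0.05 over all genes). Their counts of higher genes stand beside the 68.1% of all genes tested that were higher in ISO and the median of 0.20, and several lists lie near that share. Among other matricellular and related matrix genes, 13 of 16 tested were higher (median log2 fold change 0.57). The groups did not overlap upward for 7 (12.8% of all genes tested) and downward for 1 (3.72% of all). Wisp2, which codes for CCN5, had the smallest p and was at 45.1, 40.9 and 119 FPKM in ISO 1 to 3, against 15.3, 20.6 and 18.0 FPKM in saline 1 to 3. The SPARC relatives Smoc2 (20.4 ± 0.887 FPKM in ISO and 12.1 ± 1.83 FPKM in saline) and Smoc1 (54.9 ± 12.3 FPKM in ISO and 28.7 ± 12.9 FPKM in saline) followed it by p (SD, n = 3 each).

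Of 19 tested receptor genes 14 were higher and 5 lower (median 0.60). Lrp1, the scavenger receptor that takes up thrombospondins, was at 43.6 ± 3.96 FPKM in ISO and 20.7 ± 5.49 FPKM in saline (SD, n = 3 each). Itga9, an integrin chain that binds tenascin C and osteopontin, was at 5.35 ± 0.499 FPKM in ISO and 2.78 ± 0.457 FPKM in saline, and Itgb6, an epithelial integrin chain, was at 0.856 ± 0.259 FPKM in ISO and 2.72 ± 0.819 FPKM in saline (SD, n = 3 each). The thrombospondin receptors differed from each other. Cd36, a fatty acid carrier of muscle and vessels as well, was at 119, 119 and 116 FPKM in ISO 1 to 3, against 153, 135 and 141 FPKM in saline 1 to 3, and every ISO library lay below every saline library, against 3.72% of all genes tested. Its log2 fold change was -0.27 (SE 0.20). Cd47, the widely expressed self marker, was at 16.4 ± 2.53 FPKM in ISO and 14.3 ± 1.64 FPKM in saline with overlapping groups (SD, n = 3 each).

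Among proteases that cut matricellular proteins 5 of 9 tested were higher (median 0.33). Mmp2, gelatinase A, was at 62.2 ± 11.3 FPKM in ISO and 28.9 ± 7.07 FPKM in saline with no overlap (SD, n = 3 each). Mmp12, the macrophage elastase, was at 0.180, 7.61 and 7.13 FPKM in ISO 1 to 3, against 1.16, 0.252 and 0.0954 FPKM in saline 1 to 3, so ISO 1 stood apart from ISO 2 and ISO 3 as it did for Spp1. Bmp1, the procollagen proteinase, was at 52.6 ± 14.6 FPKM in ISO and 37.2 ± 10.7 FPKM in saline (SD, n = 3 each).

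Of 16 tested genes of activated fibroblasts 15 were higher (median 0.95). For 8 the groups did not overlap upward, against 12.8% of all genes tested. Ltbp2, a fibrillin-binding matrix protein, had the smallest p, at 6.52, 6.41 and 9.87 FPKM in ISO 1 to 3, against 1.36, 2.39 and 1.68 FPKM in saline 1 to 3. Col1a1, a chain of collagen I, was at 144 ± 40.5 FPKM in ISO and 72.2 ± 9.21 FPKM in saline, and Aspn, the proteoglycan asporin, at 39.3 ± 13.8 FPKM in ISO and 11.3 ± 8.19 FPKM in saline (SD, n = 3 each). Acta2, the actin of myofibroblasts and smooth muscle, was on this list too, at 84.6, 91.7 and 151 FPKM in ISO 1 to 3, against 143, 84.6 and 179 FPKM in saline 1 to 3, with a log2 fold change of -0.29 (SE 0.36).

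All 14 TGF-beta ligands, receptors and related genes were higher (median 0.45), with Tgfb3 at 27.6 ± 0.278 FPKM in ISO and 16.9 ± 3.32 FPKM in saline, Tgfb1 at 37.6 ± 12.8 FPKM in ISO and 23.0 ± 2.92 FPKM in saline, and the receptor Tgfbr1 at 11.1 ± 3.52 FPKM in ISO and 6.21 ± 2.43 FPKM in saline (SD, n = 3 each). Of the MEOX family and fibroblast transcription factors, 11 of 14 tested were higher (median 0.30). The ones with the smallest p were Wwtr1, the coactivator TAZ, at 32.9, 29.9 and 34.2 FPKM in ISO 1 to 3, against 23.0, 26.6 and 26.4 FPKM in saline 1 to 3, the mesenchymal factor Twist1 at 14.3 ± 8.10 FPKM in ISO and 8.13 ± 0.790 FPKM in saline, and Mkl1, a partner of SRF, at 5.95 ± 0.302 FPKM in ISO and 4.51 ± 0.906 FPKM in saline (SD, n = 3 each).

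The genes whose pattern over the 6 libraries lay nearest to that of Postn, among 5709 genes with a mean of at least 10 FPKM, were Col5a2, Unc93b1 and Mdfic, with a root mean square difference of 0.17, 0.26 and 0.29 on the centred log2 scale. Col5a2, a fibril-forming collagen chain, was at 32.1, 33.0 and 57.2 FPKM in ISO 1 to 3, against 19.2, 21.8 and 7.68 FPKM in saline 1 to 3. Unc93b1, a trafficking chaperone of Toll-like receptors, was at 36.4, 44.0 and 55.0 FPKM in ISO 1 to 3, against 22.9, 29.7 and 7.79 FPKM in saline 1 to 3. Mdfic was at 14.5, 22.2 and 22.8 FPKM in ISO 1 to 3, against 10.3, 11.2 and 3.15 FPKM in saline 1 to 3. As with Postn, ISO 3 was the highest library of all 3 genes and saline 3 the lowest. Their choice by nearness to Postn over these same libraries makes that likely, so it is no separate result.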

How the data were processed

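RNA-seq values of 3 ISO and 3 saline left ventricle libraries were analysed, each library grouped as the labels name it. The authors deposited FPKM, 1 value per gene symbol and library. Per the submitters' processing notes, the tools were HISAT2 2.1.0 and Cufflinks 2.2.1, with HTSeq 0.7.2, fastp 0.20.0 and CASAVA 1.8, on the build GRCm38, without their roles or order; the annotation release, the strand setting and the tool that made the FPKM are not given in the sources used here.

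Whole reads were recovered from the FPKM steps (within 0.0001 of a whole number) for 100% of 16816 genes above 0 in at least 2 libraries. Exact Poisson intervals (95%) around these reads hold counting error and nothing else. The test used log2(FPKM + 1) of 12269 genes with a mean of at least 1 FPKM, with limma 3.58.1 in R 4.3.3 (group alone in the model, mean-variance trend), and p-values were adjusted by Benjamini-Hochberg with a threshold of 0.05. Fold changes on this scale understate those of low genes. Both steps were tested on simulated data. Positions and start regions are RefSeq's on GRCm38.p6, and shared exons are those of GENCODE M21 (GRCm38). Protein sequences were not used here. Other steps used Python 3.11.15.

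The members, lists and tests were chosen with earlier results of these data known. Named genes are the members, the 3 of each pathway list with the smallest p, the 2 most abundant of each marker list, Cd36 and Cd47, and the 3 genes nearest to Postn; others are said to have been picked after their values were seen. Of 213 listed genes in the table, 6 are in more than 1 list. No 2 libraries agreed within sampling noise, so all 6 were counted as separate libraries. That spread cannot show whether they came from separate animals.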

Additional observations from a re-analysis of the deposited data

How the results depend on the processing

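Every one of the 9 tested members stayed higher in ISO in all 18 settings that tested it, the reported one included. The others were pseudocounts of 0.1 and 5, no filter or a minimum mean of 5 FPKM (where Thbs4, with 17 settings, was not tested), median-of-ratios and quantile scaling, sample quality weights, a replicate block, limma-voom on the recovered reads, centring on the fibroblast markers (added after seeing the data), each library left out and ISO 3 and saline 3 left out together. The median log2 fold change of the members tested in a setting ran from 0.67 with that centring to 1.22 with a pseudocount of 0.1, against 1.05. It was 0.84 to 1.18 with 1 library left out and 0.79 without ISO 3 and saline 3. Tnc was among the tested members with no filter, without ISO 1 and without saline 1. The count of 0 genes past the threshold became 768 with sample quality weights (521 higher, or 4.25% of all genes), whose weights ran from 0.0772 for saline 3 to 5.50 for ISO 2. With those weights 5 members passed: Postn (log2 fold change 1.12, adjusted p = 0.0165), Meox1 (0.93, adjusted p = 0.0172), Sparc (0.81, adjusted p = 0.0202), Thbs1 (1.66, adjusted p = 0.0300) and Cilp (1.15, adjusted p = 0.0333). Leaving out 1 library gave 0 to 16 genes and 0 to 1 members past the threshold; both maxima came without ISO 1, where the member was Spp1 (3.64). Over all settings the adjusted p of Postn ran from 0.0165 to 0.875. The limma-voom fit called 0 genes. The median of all genes, 0.20 as deposited, was 0.014 with median-of-ratios scaling, -0.0031 with quantile normalization and 0.063 without saline 3. The median of the members in these settings was 0.88, 1.03 and 0.90.

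The deviations of same-numbered libraries from their group means correlated at 0.013, -0.15 and -0.025. These values show no strong effect shared by same-numbered libraries. They cannot show whether the libraries were handled in pairs. With a replicate block 0 genes and 0 members passed, and 5 members had an unadjusted p under 0.05, against 6 without it. Depth limits Tnc (17 to 68 reads per library), Thbs4 (30 to 96 reads) and Cilp in saline 3 (10 reads). Reads were also few for Thbs2 in saline 3 (35 reads) and for Spp1 in ISO 1 (15 reads).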

Other observations

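The deposited FPKM imply the gene length that the submitters divided by. For Postn this was 3401 bases, while its merged exons in GENCODE M21 cover 8702 bases, and for Sparc it was 2641 against 3788 bases. For Cilp (4153 against 4252 bases), Meox1 (2208 against 2228 bases) and Spp1 (1658 against 1648 bases) the lengths were close. A length changes the level of a gene in all libraries by the same factor, so it bears on the order of the members by level and not on the ratio of ISO to saline.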
